A study of Mus musculus with 4 samples.

Results

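A set of 37 genes of fatty acid oxidation and ketogenesis was examined, out of 32575 genes or gene identifiers on the array. The genes were chosen by name, by a rule that uses no measured value, though with earlier results of these data known. They run from the transcription factors that control the pathway through fatty acid uptake, activation and the carnitine shuttle to the mitochondrial and peroxisomal cycles. Ketone body genes and targets of PPARA that fasting induces are also included. All 37 had a probe on the array. Of these, 27 had 1 probe and 10 had several, which made 50 probes. The mice were 20-week-old males. They were either WT or IP6K2-KO, their littermates that lack the part of *Ip6k2* encoding the catalytic domain of this inositol pyrophosphate-forming kinase. Every mouse had eaten the CE-2 diet, then purified iVid-neo diet for 1 week, and all went 48 h without food before organs were taken, so the comparison holds no fed animal. Total RNA of spinal cord and duodenum was hybridized to 1-colour arrays, with 1 array for each genotype and tissue. No difference below therefore has a replicate check, no test was made, and a difference between genotypes cannot be told apart from one between single animals.

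Fatty acids enter cells partly through CD36, are linked to coenzyme A by acyl-CoA synthetases and cross into mitochondria through the carnitine shuttle, where repeated rounds of dehydrogenation, hydration, oxidation and thiolysis release acetyl-CoA. In the fasted liver, and to a lesser degree in other tissues, the acetyl-CoA can be turned into ketone bodies, which brain and muscle burn. PPARA is the nuclear receptor that fatty acids activate in fasting, and many of these genes are among its classical targets, while small-intestinal enterocytes are known to express much of the same program.

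Levels are given as the processed signal of a probe, an intensity after background subtraction, or as its log2 minus the 75th percentile of the array. Levels of different genes come from different probes and are not compared. The 75th percentile was 905 for WT spinal cord, 971 for the spinal cord labelled IP6K2-KO, 68.0 for WT duodenum and 323 for the duodenum labelled IP6K2-KO, and the share of the 39429 probes that stood well above background ran from 51.6% to 77.3%, so dim genes are least certain on the WT duodenum array. Raw signals of the duodenum arrays differ several-fold in general brightness, and only the scaled levels are compared between them. The only error that can be given is a technical SD, taken from probes spotted 10 times on each array, which covers spots and not mice. The *Ip6k2* probe went against its label in the spinal cord, with a log2 difference of 1.45 in favour of the array labelled IP6K2-KO, and differed by −0.21 in the duodenum. Its position relative to the deleted part is not given in the sources used here, and a probe outside that part would not check the genotype. Genotypes are therefore given as labelled, and every direction between them rests on those labels. The tissue labels went with the levels of their markers. The 6 neuronal markers had median levels of 4.99 (WT) and 4.95 (labelled IP6K2-KO) in the spinal cord, and −2.91 and −2.25 in the duodenum. For the 6 oligodendrocyte markers the medians were 4.12 and 4.24 in the spinal cord, and −1.80 and −2.50 in the duodenum. The 9 enterocyte markers had medians of −7.04 and −7.20 in the spinal cord, and 6.73 and 6.64 in the duodenum.

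On all 4 arrays, 33 of the 37 genes stood well above background. The exceptions were *Acot2* and *Cpt1c*, dim on the WT duodenum array, *Fgf21*, dim on both spinal cord arrays, and *Vnn1*, dim on the WT spinal cord array.

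**Figure D1:**
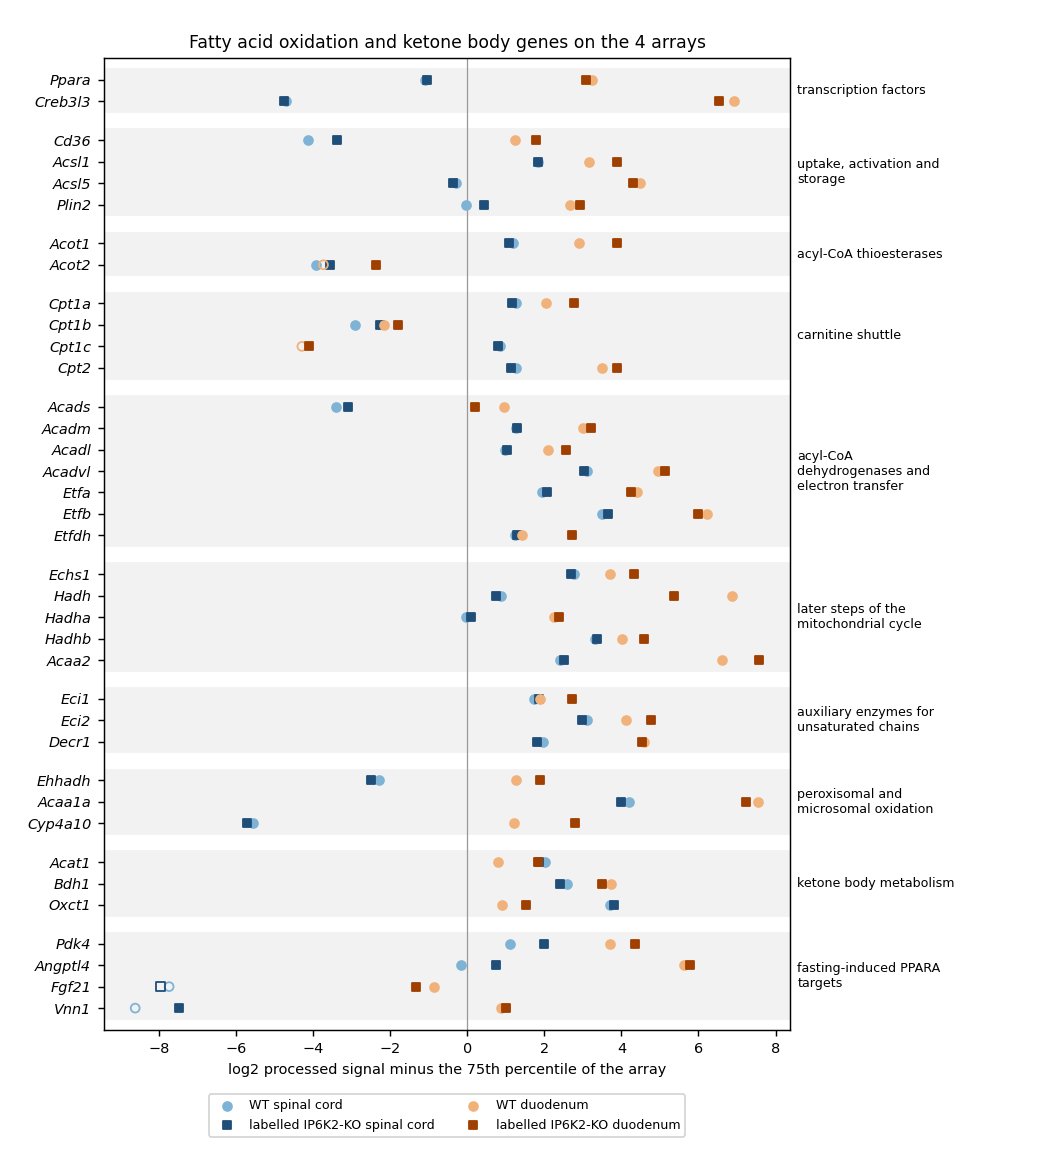
Level of each of the 37 genes on the 4 arrays (x axis, log2 of the processed signal minus the 75th percentile of the array), grouped by role. Each point is 1 array and open points are not well above background. The spinal cord points lie close together for most genes and the duodenum points lie to their right for most, with Oxct1, Cpt1c and Acat1 among the exceptions.

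In the spinal cord, most of the pathway differed little between the arrays, whereas a small group of fasting and lipid-handling genes was higher on the array labelled IP6K2-KO. None of the 36 genes that could be compared was higher or lower by at least 2-fold, while over all genes 2.28% were higher and 0.865% were lower by that much. For the 35 members measured above background on both, the median log2 difference was 0.02, and over all genes it was −0.04. The difference was within 0.25 for 28 of the 35, a share that can be read beside the 73.7% of all genes. A total of 18 of the 35 were above 0 and 17 were below.

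The largest differences in the spinal cord belonged to *Angptl4*, *Pdk4*, *Cd36*, *Cpt1b* and *Plin2*, which are singled out here because of their values. *Angptl4* (NM_020581), a secreted inhibitor of lipoprotein lipase, gave processed signals of 806 (WT) and 1634 (labelled IP6K2-KO), a log2 difference of 0.92 with a technical SD of 0.058. *Pdk4* (NM_013743), the kinase that turns off pyruvate dehydrogenase and so spares glucose, gave 1962 and 3866, a difference of 0.88 with a technical SD of 0.057. The folds were 1.89 and 1.84, higher on the array labelled IP6K2-KO for both.

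*Cd36* (NM_007643), which encodes a fatty acid transporter of the plasma membrane, gave 51.6 and 92.9, a difference of 0.75 with a technical SD of 0.106. *Cpt1b* (NM_009948), the muscle form of the outer carnitine palmitoyltransferase, gave 120 and 203, a difference of 0.66 with a technical SD of 0.081, and its second probe differed by 0.30. *Plin2* (NM_007408), which encodes a coat protein of lipid droplets, gave 891 and 1320, a difference of 0.47. All 5 were higher on the array labelled IP6K2-KO by more than the technical spread of spots. For *Pdk4*, *Angptl4* and *Plin2* every alternative processing gave the same direction, with differences from 0.71 to 1.07, from 0.75 to 1.00 and from 0.30 to 0.51. *Cd36* and *Cpt1b* are dimmer, and under normexp background correction their differences were −1.22 and −0.51, so their direction depended on the processing. When flagged local backgrounds were replaced first, normexp gave 0.35 and 0.53.

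Markers of other cell types moved with this group in the spinal cord. All 11 markers of skeletal muscle were at least 2-fold higher on the array labelled IP6K2-KO, with a median difference of 4.01 over the 10 measured on both, and their summed level relative to the 75th percentile was 5.03 in WT and 78.0 on the other. *Acta1*, *Ckm* and *Myh4*, which define that tissue, were higher by 4.48, 4.58 and 4.02. Of 5 Schwann cell markers 4 were at least 2-fold higher, with summed levels of 1.94 and 13.3, and *Prx*, which encodes a protein of peripheral nerve myelin, was higher by 5.23. Of 6 blood markers 4 were at least 2-fold higher, with summed levels of 228 and 351. Brown fat markers went the other way, with 3 of 5 at least 2-fold lower, summed levels of 6.39 and 3.77, and *Ucp1*, the defining gene, at −5.02. Of the 6 adipocyte markers, 5 were measured, with a median of −0.98. *Adipoq*, *Plin1* and *Cidec* were at −1.01, −0.98 and −0.99, *Cfd* and *Retn* at 0.92 and 1.37, and the summed levels were 1.04 and 1.22. Medians of the neuronal, oligodendrocyte and astrocyte markers lay between −0.12 and 0.10. The part of these cell types in the differences of *Angptl4*, *Pdk4*, *Cd36*, *Cpt1b* and *Plin2* was not tested. In tissue RNA, fewer cells of a type and less RNA per cell cannot be told apart.

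**Figure D2:**
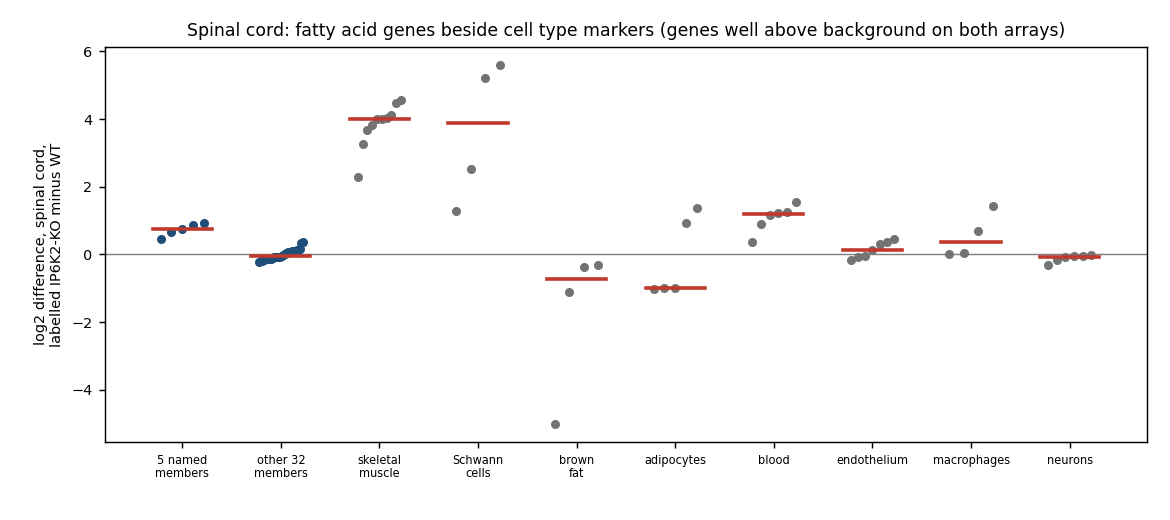
Log2 difference in the spinal cord, labelled IP6K2-KO minus WT (y axis), for the 5 genes singled out, the other members and markers of 8 cell types. Each point is a gene that stood well above background on both, and red lines are medians. Most other members lie close to 0, with Acot2 at 0.35 and Acads at 0.33 the highest of them. The 5 genes lie between 0.47 and 0.92 and the skeletal muscle markers lie above 2.

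The remaining spinal cord values were mostly small, the largest being *Acot2* at 0.35 and *Acads* at 0.33. *Ppara* itself differed by 0.06 with a technical SD of 0.061, and *Creb3l3*, a liver and intestinal transcription factor of fasting, by −0.07 with a technical SD of 0.123, both close to or within the spread of spots. The mitochondrial cycle enzymes *Acadm*, *Acadl*, *Acadvl*, *Echs1*, *Hadh*, *Hadha*, *Hadhb* and *Acaa2* lay between −0.12 and 0.12. *Acads*, the short-chain dehydrogenase, differed by 0.33 under the main scaling and by −1.22 under normexp. With flagged backgrounds replaced normexp gave 0.15, so the direction of *Acads* depended on the processing. Under the main scaling peroxisomal and microsomal genes were slightly lower, with *Ehhadh* at −0.20, *Acaa1a* at −0.21 and *Cyp4a10* at −0.14. The *Cyp4a10* value rests on signals of 19.1 and 18.6 and lies within its technical SD of 0.170. Under normexp these genes were, in that order, at −0.87, 0.14 and −2.15. With flagged backgrounds replaced they were at −0.15, −0.23 and −0.11. The ketone body genes *Acat1*, *Bdh1* and *Oxct1* differed by −0.14, −0.20 and 0.11.

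Fatty acid activation and mitochondrial entry were nearly level between the spinal cord arrays. The synthetases *Acsl1* and *Acsl5* differed by −0.01 and −0.09, and *Cpt1a*, *Cpt1c* and *Cpt2* by −0.09, −0.04 and −0.12. *Cpt1a* was spotted 10 times, with levels of 1.26 ± 0.02 in WT and 1.16 ± 0.04 on the array labelled IP6K2-KO (SD of 10 spots on 1 array). Of the carnitine shuttle, *Cpt1b* alone was thus higher by over 0.25. The thioesterases *Acot1* and *Acot2* differed by −0.10 and 0.35, the latter on signals of 59.8 and 82.0. For *Acot2* normexp gave −1.53, and 0.09 with flagged backgrounds replaced. The electron carriers *Etfa*, *Etfb* and *Etfdh* differed by 0.13, 0.17 and 0.07, and the enzymes for double bonds *Eci1*, *Eci2* and *Decr1* by 0.11, −0.13 and −0.17. *Fgf21* was not well above background on either spinal cord array, and *Vnn1* was so on the array labelled IP6K2-KO only, with a bound of 0.17.

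**Figure D3:**
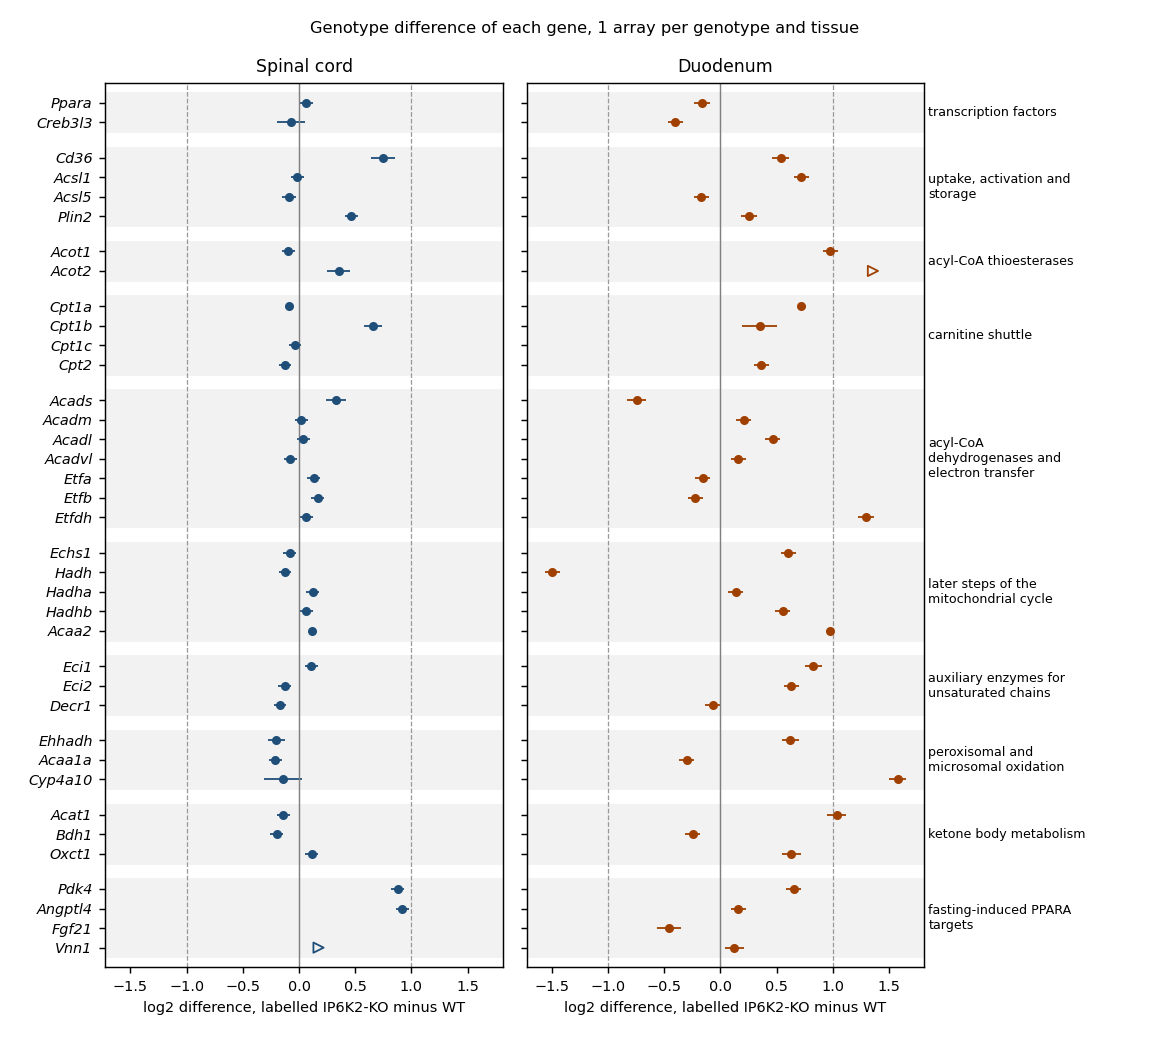
Log2 difference of each gene between the array labelled IP6K2-KO and the WT array (x axis) in the spinal cord (left) and the duodenum (right), grouped by role. Points are differences of 1 array per genotype, bars are the technical SD of spots, open triangles are lower bounds, and dashed lines mark 2-fold. Most spinal cord values cluster around 0, apart from the 5 genes singled out and, less far, Acot2 at 0.35 and Acads at 0.33. The duodenum values spread from −1.50 for Hadh to 1.58 for Cyp4a10.

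In the duodenum the pathway was more often higher than lower on the array labelled IP6K2-KO, and the members did not move together. Of the 37 genes, 4 were at least 2-fold higher (*Acot2*, *Acat1*, *Etfdh* and *Cyp4a10*) and 1 was at least 2-fold lower (*Hadh*). Over all genes, 7.17% were higher and 11.9% were lower by that much. For the 35 members measured above background on both, the median log2 difference was 0.35, beside −0.11 over all genes, and 24 were above 0 and 11 below. Under quantile normalization of the 4 arrays the split of members was 5 higher and 0 lower, beside 7.08% and 8.79% of all genes. Under normexp it was 12 and 0, beside 3.93% and 14.3% of all genes. Over all genes, higher calls were 37.6% of all calls under the main scaling, 21.6% under normexp, 63.6% in the authors' table and 99.9% under scaling on spiked-in controls, which moved the median gene from −0.11 to 2.89. Changes are given relative to the 75th percentile throughout.

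Markers of other tissues differed between the duodenum arrays as well. All 6 blood markers were at least 2-fold lower on the array labelled IP6K2-KO, with a median of −3.39 and summed levels of 1532 and 88.4. Of 10 pancreatic acinar markers 8 were at least 2-fold lower, with summed levels of 18016 and 5381, and *Ctrb1*, which encodes a chymotrypsinogen, was at −2.17. The 9 enterocyte markers had a median of 0.09 and summed levels of 2152 and 1204, with *Fabp2* alone at least 2-fold lower, at −1.81. Villin, sucrase-isomaltase and lactase (*Vil1*, *Sis* and *Lct*) differed by 0.20, −0.26 and 0.33. The 6 smooth muscle markers had a median of −0.78. The part of these tissues in the duodenal values was not tested.

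Among the oxidation enzymes outside and at the edge of the mitochondrion, *Cyp4a10* (NM_010011), a microsomal omega-hydroxylase and a sensitive PPARA target, gave signals of 158 (WT) and 2233 (labelled IP6K2-KO), which are levels of 1.21 and 2.79 after scaling and a log2 difference of 1.58 with a technical SD of 0.076. Its other 2 probes differed by 1.87 and 2.16. Each of its 3 probes was higher on the array labelled IP6K2-KO, and the difference stayed between 1.52 and 1.87 under the alternatives other than spiked-in controls. Near-identical members of the Cyp4a family may share this signal, so the gene behind it is uncertain. *Ehhadh*, the bifunctional peroxisomal enzyme, differed by 0.62, and *Acaa1a*, the peroxisomal thiolase, by −0.30, a sign that turned under quantile normalization and under normexp and that may also carry its close copy *Acaa1b*.

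*Etfdh* (NM_025794), which passes electrons from the acyl-CoA dehydrogenases to ubiquinone, gave 182 and 2116, which are levels of 1.42 and 2.71 after scaling and a log2 difference of 1.30 with a technical SD of 0.074. It was thus 2.45-fold higher relative to the 75th percentile of each array, with a range from 1.27 to 1.52 on the log2 scale under the alternatives other than spiked-in controls. Its partners *Etfa* and *Etfb*, the subunits of the flavoprotein that feeds it, differed by −0.16 and −0.22, and these signs turned under other scalings. The 3 genes of this electron route therefore did not differ alike. The dehydrogenases of successive chain lengths also spread, with *Acadvl* at 0.16, *Acadl* at 0.47, *Acadm* at 0.21 and *Acads* at −0.74, the last on signals of 131 and 372.

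In the later steps of the cycle, *Hadh* (NM_008212), the short-chain hydroxyacyl-CoA dehydrogenase, gave 7914 (WT) and 13325 (labelled IP6K2-KO). Relative to the 75th percentile of each array the levels were 6.86 and 5.37, a difference of −1.50 with a technical SD of 0.067. The raw signal was higher and the normalized level lower on the array labelled IP6K2-KO, so the direction rests on the scaling. It was −1.03 with quantiles matched within tissue, −0.84 with quantiles matched over the 4 arrays, −0.86 under normexp and 1.51 on spiked-in controls. *Acaa2* (NM_177470), the thiolase that closes the cycle, was spotted 10 times, with levels of 6.61 ± 0.07 and 7.58 ± 0.05 (SD of 10 spots on 1 array). Its difference of 0.97 fell just short of 2-fold and was 1.42 with quantiles matched over the 4 arrays. *Echs1*, *Hadhb* and *Hadha*, the hydratase and the subunits of the trifunctional protein, differed by 0.60, 0.55 and 0.14.

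Under the main scaling the carnitine shuttle, which brings fatty acids into mitochondria, was higher by the probe used for each gene that could be compared. *Cpt1a*, the rate-limiting outer carnitine palmitoyltransferase of most tissues, was also spotted 10 times, with levels of 2.05 ± 0.05 and 2.77 ± 0.04 (SD of 10 spots on 1 array), a difference of 0.72. Its second, dimmer probe differed by 0.02. *Cpt2*, on the inner membrane, differed by 0.37 and by 1.78 on its dimmer probe. *Cpt1b* differed by 0.35, on signals of 15.3 and 92.5, and by −0.53 on its other probe. The probes of these 3 genes thus did not give 1 value. Under normexp with either background the *Cpt1b* probe used was at −0.57, so its direction depended on the processing. *Cpt1c*, the neuronal form, gave signals of 3.47, not well above background, and 18.6, and no fold can be given.

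*Acot1* and *Acot2*, close paralogs that hydrolyse long-chain acyl-CoA in cytosol and mitochondria, gave differences in the same direction. *Acot1* (NM_012006) gave 511 and 4769, a difference of 0.98 with a technical SD of 0.068, just inside 2-fold. *Acot2* (NM_134188) gave 5.12, not well above background, and 62.2. Under the main scaling its bound was 2.56-fold higher on the array labelled IP6K2-KO, with a technical SD of 0.318 on the log2 scale. The bound uses the dim probe's own value, so it is not a firm minimum. Under normexp with either background no fold could be given. The other alternatives apart from spiked-in controls gave log2 values from 1.36 to 1.40. Their sequences are similar enough that the probes may share signal, so these are not 2 independent values.

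Uptake and activation genes were mixed. *Acsl1* and *Acsl5*, acyl-CoA synthetases, differed by 0.72 and −0.17, *Cd36* by 0.54 and *Plin2* by 0.25. Enzymes that handle double bonds gave 0.83 for *Eci1*, 0.63 for *Eci2* and −0.07 for *Decr1*. The sign of *Acsl5* and that of *Decr1* turned under other scalings.

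Among ketone body genes, *Acat1* (NM_144784), the mitochondrial acetoacetyl-CoA thiolase used in making and in burning ketone bodies, gave 119 and 1154 in the duodenum, which are levels of 0.80 and 1.84 after scaling and a difference of 1.04 with a technical SD of 0.083. In the spinal cord it gave 3646 and 3552, a difference of −0.14. The array labelled IP6K2-KO was higher in the duodenum and slightly lower in the spinal cord, and the duodenal value ranged from 0.99 to 1.22 under the alternatives other than spiked-in controls, which straddles 2-fold. *Oxct1*, the enzyme that commits ketone bodies to oxidation, differed by 0.63 in the duodenum on signals of 126 and 930. *Bdh1*, which interconverts acetoacetate and hydroxybutyrate, differed by −0.25, a sign that turned under quantile normalization, and the dimmest of its probes gave 1.36.

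The regulators *Ppara* and *Creb3l3* stayed within 2-fold in the duodenum by their brightest probes. So did *Pdk4*, *Angptl4*, *Vnn1* and *Fgf21*, genes that fasting induces through PPARA. *Cyp4a10*, also a PPARA target, was past 2-fold, at 1.58 as given above. *Ppara* gave 644 and 2729, a difference of −0.16, with −0.50 and −1.45 on its other probes. *Creb3l3* differed by −0.40. Both signs turned under quantile normalization. *Pdk4* gave 885 and 6600, a difference of 0.65, and *Angptl4* gave 3354 and 17784, a difference of 0.16. *Vnn1*, the pantetheinase vanin, differed by 0.12, and *Fgf21*, the fasting hormone, by −0.45 on signals of 37.3 and 129.

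Under the main scaling *Angptl4* differed by 0.92 in the spinal cord and 0.16 in the duodenum, and *Pdk4* by 0.88 and 0.65. Under normexp the values were 0.84 and 0.82 for *Angptl4* and 1.07 and 1.18 for *Pdk4*, so which tissue differed more depended on the processing and was not tested. Over the 33 genes measured on all 4 arrays, 13 were higher and 6 were lower on the arrays labelled IP6K2-KO in both tissues, and 14 went in opposite directions. The genotype difference was beyond the technical SD of spots for 28 of these 33 genes in the spinal cord and for all 33 in the duodenum. That SD covers neither mice nor the choice of scaling. No share over all genes was counted for the shared or opposite directions, or for differences beyond that SD. Whether other genes would give similar counts was therefore not tested. Of all genes measured on both arrays of a tissue, 41.3% were above 0 for the spinal cord and 44.2% for the duodenum. For the 35 members measured on both spinal cord arrays, 28 differences were within 0.25, so most of those signs belong to small differences. In the duodenum *Etfa* and *Creb3l3*, at −0.16 and −0.40, were at 0.13 and 0.16 with quantiles matched over the 4 arrays.

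**Figure D4:**
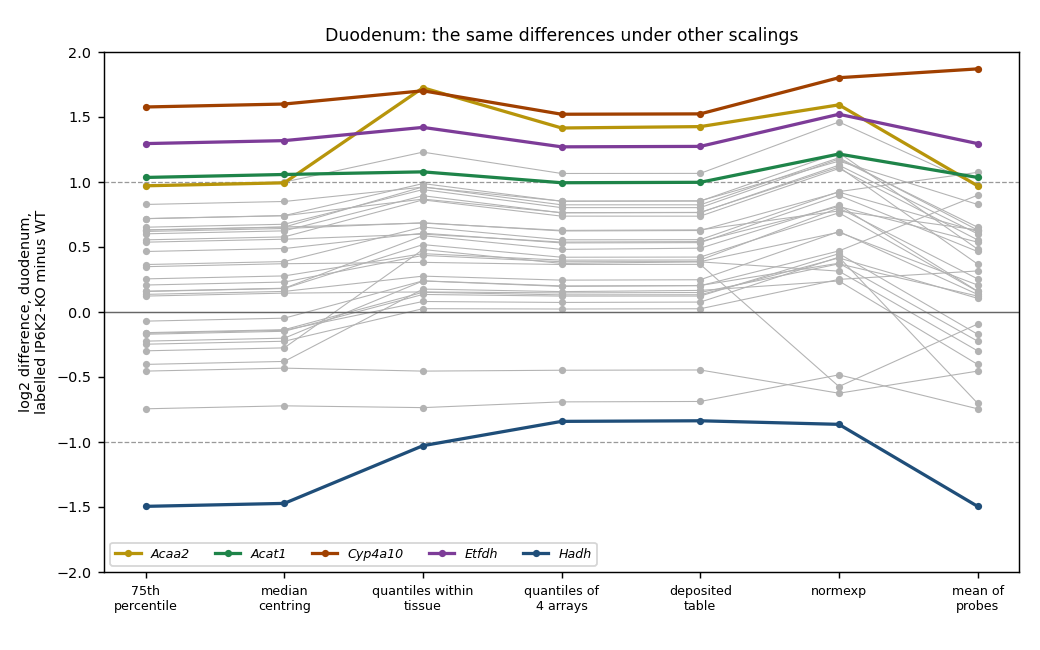
Log2 difference in the duodenum, labelled IP6K2-KO minus WT (y axis), for each gene with a value under all 7 settings (x axis: the main scaling by the 75th percentile and 6 alternatives). Lines join 1 gene, 5 genes are coloured, and dashed lines mark 2-fold. Cyp4a10 and Etfdh stay above 2-fold, Hadh stays below 0 but crosses −1, and 8 genes below 0 under the main scaling lie above 0 under quantile normalization.

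Promoter sequence is shown for 4 genes of the fatty acid program, to put letters beside the targets: *Pdk4*, *Cd36* and *Plin2*, which were higher on the spinal cord array labelled IP6K2-KO, and *Acadm*, a textbook PPARA target that differed by 0.02 there and 0.21 in the duodenum. Each line is the 250 bases before the transcription start, read 5′ to 3′ on the gene's own strand (the minus strand for all 4), from RefSeq promoters on build GRCm38.p6, with the nuclear receptor half-site AGGTCA, or its reverse complement, in capitals. They lie at chr6:5496279-5496528 (*Pdk4*), chr5:17835897-17836146 (*Cd36*), chr4:86670060-86670309 (*Plin2*) and chr3:153944644-153944893 (*Acadm*).
Pdk4: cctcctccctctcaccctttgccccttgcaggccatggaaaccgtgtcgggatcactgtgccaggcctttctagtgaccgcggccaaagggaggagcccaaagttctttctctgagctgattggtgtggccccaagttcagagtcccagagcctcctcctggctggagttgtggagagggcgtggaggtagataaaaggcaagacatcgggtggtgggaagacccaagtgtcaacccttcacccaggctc
Cd36: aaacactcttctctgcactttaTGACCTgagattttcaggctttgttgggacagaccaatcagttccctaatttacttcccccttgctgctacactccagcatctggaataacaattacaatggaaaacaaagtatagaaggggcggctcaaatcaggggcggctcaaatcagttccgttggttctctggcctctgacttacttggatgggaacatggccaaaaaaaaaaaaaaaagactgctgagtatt
Plin2: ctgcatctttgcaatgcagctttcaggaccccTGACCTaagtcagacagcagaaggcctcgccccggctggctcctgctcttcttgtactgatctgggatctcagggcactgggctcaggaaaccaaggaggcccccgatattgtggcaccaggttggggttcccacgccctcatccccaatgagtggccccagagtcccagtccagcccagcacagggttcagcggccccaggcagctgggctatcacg
Acadm: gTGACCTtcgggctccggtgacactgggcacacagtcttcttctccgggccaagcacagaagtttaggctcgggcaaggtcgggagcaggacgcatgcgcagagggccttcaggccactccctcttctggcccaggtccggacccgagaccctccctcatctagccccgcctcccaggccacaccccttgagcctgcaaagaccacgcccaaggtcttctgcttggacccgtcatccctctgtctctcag

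*Cd36*, *Plin2* and *Acadm* hold 1 half-site each, on the reverse strand, and *Pdk4* holds none in this window. RefSeq promoters matched 30 of the 37 genes, with 33 start sites. The half-site, searched on both strands, was in 8 of these 33 windows (24.2%), of *Acadm*, *Acadvl*, *Cd36*, *Cpt1a*, *Cpt1c*, *Creb3l3*, *Echs1* and *Plin2*, and in 14.0% of all 32851 windows of this length. The full PPAR-type element AGGTCANAGGTCA, which contains the half-site, was in 0 of the 33 and in 11 of all windows, or 0.0335%. A match describes letters and not a bound site. The 8 genes include *Cd36* and *Plin2*, with spinal cord differences of 0.75 and 0.47, and *Acadvl*, *Cpt1a* and *Echs1*, with −0.08, −0.09 and −0.08.

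Between the tissues the pathway stood higher in the duodenum. Differences between tissues are given relative to the median gene of each comparison, because scalings shift all genes between tissues by different amounts. In WT, 23 of the 37 genes were at least 2-fold higher in the duodenum and 3 were lower, while over all genes 23.8% were higher and 32.1% were lower. On the arrays labelled IP6K2-KO, 29 were higher and 2 lower, while over all genes 25.7% were higher and 30.4% were lower. The median of the members measured in both tissues was 1.66 in WT (33 genes) and 2.02 on the arrays labelled IP6K2-KO (36 genes), where the median gene is 0 by construction.

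The widest tissue differences were those of *Creb3l3*, *Vnn1*, *Cyp4a10* and *Fgf21*. *Creb3l3* gave signals of 34.9 and 35.7 in the WT and labelled IP6K2-KO spinal cord and 8275 and 29702 in the duodenum, and was higher in the duodenum by 11.00 and 10.99. *Ppara* was higher by 3.71 and 3.82. Both transcription factors stood higher in the duodenum on each pair of arrays, by nearly the same amount under the main scaling. Under normexp *Creb3l3* was at 7.20 in WT and 9.16 on the arrays labelled IP6K2-KO, and *Ppara* at 2.61 and 3.22. With flagged backgrounds replaced the WT values were 8.76 and 2.67.

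*Fgf21* gave 4.24 and 3.91 in the spinal cord, not well above background, and was higher in the duodenum by at least 6.17 and 6.20. *Vnn1* gave 2.30, not well above background, and 5.40 in the spinal cord and was higher in the duodenum by at least 7.92 in WT and by 8.19 on the arrays labelled IP6K2-KO. *Angptl4* was higher by 5.16 and 4.73, and *Pdk4* by 1.96 and 2.06. *Cyp4a10* was higher by 6.15 and 8.20. These sizes depended on the background correction. Under normexp the WT differences were 0.83 for *Fgf21*, which is below 2-fold, 1.70 for *Vnn1* and 1.92 for *Cyp4a10*, and with flagged backgrounds replaced they were 2.85, 3.79 and 3.66. On the arrays labelled IP6K2-KO normexp gave 2.50, 4.32 and 5.75.

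Enzymes of the mitochondrial cycle differed unevenly between the tissues. *Hadh* was higher in the duodenum by 5.37 and 4.33, *Acaa2* by 3.57 and 4.76 and *Acads* by 3.74 and 2.99. In contrast, *Hadhb* was at 0.09 and 0.91, *Echs1* at 0.32 and 1.34 and *Acadl* at 0.48 and 1.23. In WT the sign of *Hadhb* turned under 4 of 6 alternatives, down to −0.75, that of *Echs1* under 3, down to −0.46, and that of *Acadl* under 1, at −0.19, so the WT direction of these 3 genes depended on the processing. Fatty acid entry genes differed as well, with *Acsl5* higher in the duodenum by 4.14 and 4.38, and *Cd36* by 4.74 and 4.86. Under normexp *Cd36* was at 1.96 and 3.87, the WT value being 3.24 with flagged backgrounds replaced. *Cpt1a* was at 0.17 and 1.30, with the WT sign turned under 1 of 6 alternatives. *Plin2* was higher by 2.06 and 2.18, *Acsl1* by 0.69, a sign that turned under 1 of 6 alternatives, and 1.76, and *Cpt2* by 1.62 and 2.44, while *Cpt1b* differed by 0.13 and 0.15, the latter with its sign turned under 2 of 6.

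The remaining dehydrogenases and electron carriers stood higher in the duodenum by a moderate amount, with *Acadvl* at 1.22 and 1.78, *Etfa* at 1.83 and 1.87 and *Etfb* at 2.11 and 2.04. *Acadm* was at 1.1 in WT and 1.61 on the arrays labelled IP6K2-KO, and the WT value was below 2-fold under 4 of 6 alternatives, down to 0.40. *Etfdh* was at −0.44 in WT and 1.12 on the arrays labelled IP6K2-KO, and *Eci1* likewise at −0.48 and 0.57. These 2 genes stood on different sides of the median gene in the genotypes as labelled, a difference that was not tested. *Eci2* was at 0.39, with the sign turned under 3 of 6 alternatives, and 1.47, and the 4 values of *Decr1* and *Hadha* lay between 1.66 and 2.42. Peroxisomal *Ehhadh* was higher by 2.95 and 4.10 and *Acaa1a* by 2.70 and 2.94. *Acot1* was higher by 1.1 in WT, where it lost 2-fold under 4 of 6 alternatives, and by 2.50 on the arrays labelled IP6K2-KO. *Acot2* was lower in WT, by a bound of −0.44, and higher by 0.89 on the arrays labelled IP6K2-KO. The WT bound uses the dim probe's own value on the duodenum array, so it is not firm. No WT fold could be given under normexp with either background, quantiles of the 4 arrays or the deposited table.

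The main gene of ketone body use and the neuronal carnitine enzyme ran the other way. *Oxct1* gave 11751 and 13636 in the spinal cord and 126 and 930 in the duodenum, and was lower in the duodenum, at −3.43 in WT and −2.58 on the arrays labelled IP6K2-KO. *Cpt1c*, known as the brain form, gave 1628 and 1701 in the spinal cord. Its tissue difference was beyond −5.44 in WT and −5.23 on the arrays labelled IP6K2-KO. Under normexp the values of *Cpt1c* were −2.25 and −3.78, the WT one being −2.72 with flagged backgrounds replaced. *Acat1* was at −1.83 and −0.33, so it was at least 2-fold lower in the duodenum on the WT arrays and not on the others. *Bdh1* was at 0.52 and 0.79, the WT sign turning under 2 of 6 alternatives. The duodenum thus had lower levels of *Oxct1* and *Cpt1c* on both pairs of arrays, relative to the median gene. Neuronal markers were lower in the duodenum for all 6 genes and enterocyte markers higher for all 9, and their part in these tissue differences was not tested.

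**Figure D5:**
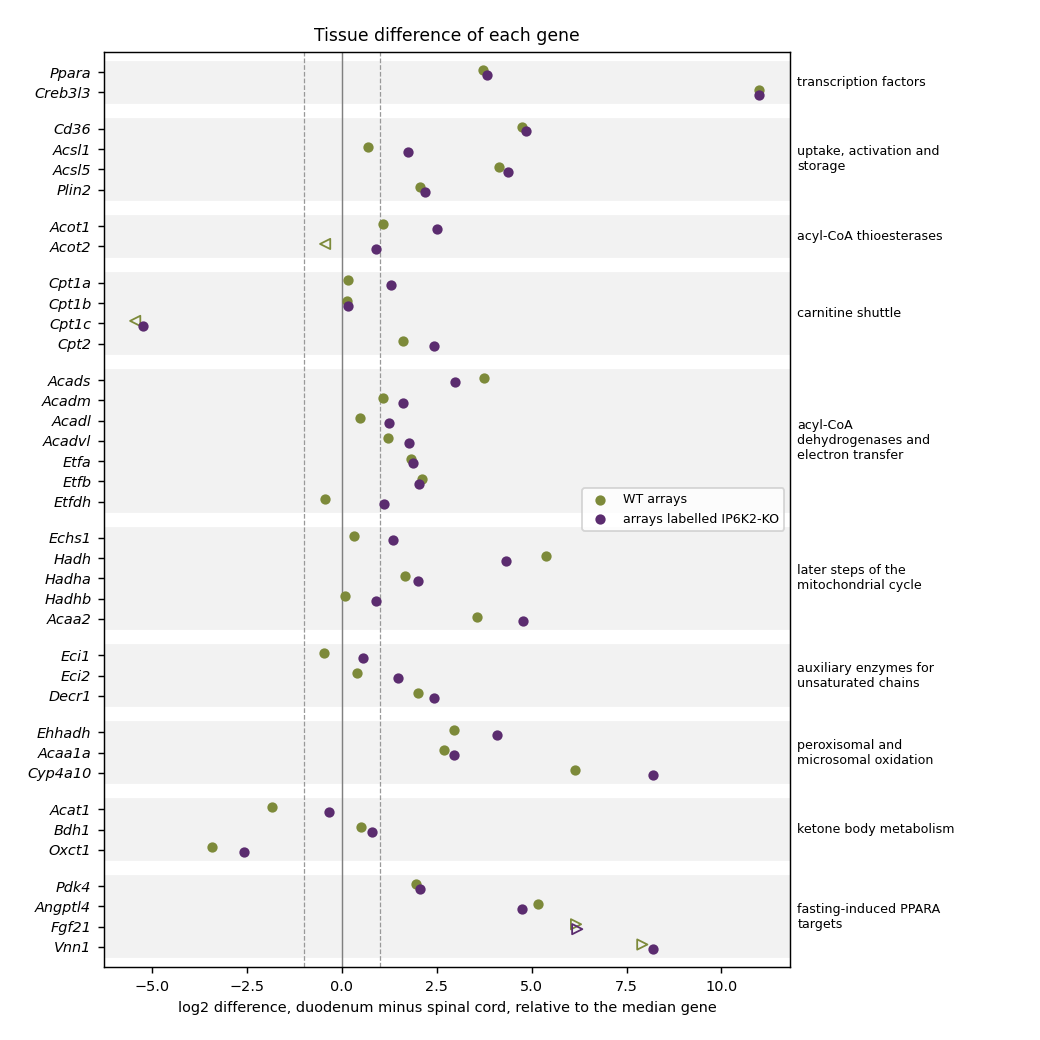
Log2 difference of each gene, duodenum minus spinal cord, relative to the median gene (x axis), on the WT arrays (green) and on the arrays labelled IP6K2-KO (purple), 1 array per tissue and genotype. Open triangles are bounds and dashed lines mark 2-fold. Most genes lie to the right of 0, with Creb3l3 near 11, and Oxct1 and Cpt1c lie well to the left on both.

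A list of 66 other genes of the pathway was read in the same way. In the duodenum 8 of 64 tested were at least 2-fold higher and 3 were lower, beside 7.17% and 11.9% of all genes. The median was 0.04 over the 63 measured on both arrays. The 3 highest were *Pcca* at 2.10, *Acadsb* at 1.43 and *Lpin1* at 1.42, which serve propionate use, branched-chain acyl-CoA oxidation and PPARA coactivation. *Pcca* gave 7.55 and 154 and *Lpin1* 6.60 and 84.0, so these rest on a dim WT array. The 3 lowest were *Acad10* at −1.64, *Crat*, the carnitine acetyltransferase, at −1.45 and *Decr2*, a peroxisomal reductase, at −1.30.

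In the spinal cord the other pathway genes had a median of −0.02 over the 65 measured on both arrays. At least 2-fold higher were 2 and lower were 0, beside 2.28% and 0.865% of all genes. *Acox2*, a peroxisomal oxidase, was higher by 1.02 on signals of 6.11 and 13.3, and *Fabp3*, the heart and muscle fatty acid-binding protein, by 0.33. The lowest were *Pparg* at −0.59, *Acot4* at −0.47 and *Acot12* at −0.47. The part of the marker shifts given above in these values was not tested.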

How the data were processed

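RNA of spinal cord and duodenum from WT and IP6K2-KO mice was measured on 4 arrays, 1 per genotype and tissue, on 1 slide. Per the file headers and labels, the authors scanned them and deposited the output of Agilent Feature Extraction 11.5.1.1, in which the processed signal is a background-subtracted intensity, and a table of log2 values, quantile-normalized over the 4 arrays as rebuilt from the scanner files. Here control spots and outlier-flagged spots (89 to 133 of 43020) were left out. Spots of the same probe were averaged as log2 processed signal, and each array's 75th percentile was subtracted. No spot was saturated. Where a gene had several probes, the one with the greatest mean level over all arrays stood for it. Symbols came from RefSeq tables (GRCm38.p6), which matched 25862 of 26391 probes with an NM accession. Where only 1 of the compared arrays was well above background, the difference is a bound: the bright array's value against the higher of the dim probe's own value and the lowest value well above background on the dim array. No fold is given where this bound is under 1 or both arrays are dim. Called means a difference of at least 2-fold. The technical SD came from 399 probes spotted 10 times, using the 50 nearest in brightness. The 37 genes are all named, and of 66 other pathway genes the 3 highest and 3 lowest per genotype comparison, apart from items that are not reported here. The members and lists were chosen with earlier results of these data known. Alternatives were normexp (limma 3.58.1, R 4.3.3, offset 50), with and without replaced flagged backgrounds, quantile normalization, median centring, spiked-in controls (8 probes), the deposited table, averaging all probes of a gene, no filter on dim probes, and 1.5-fold. Python 3.11.15, numpy 2.4.6 and pandas 2.3.3 were used, and the code was tested on simulated data.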

Additional observations from a re-analysis of the deposited data

Results flagged for a closer look

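*Acat1* differed between the tissues in its genotype difference. In the duodenum it was higher on the array labelled IP6K2-KO by 1.04 on the log2 scale, and in the spinal cord the difference was −0.14. The single array pair of each tissue thus moved in opposite directions, 1.17 apart, and the duodenal value was past 2-fold. With 1 array per genotype and tissue the difference between the tissues was not tested. The spinal cord sign turned under 1 of 7 alternatives, with values from −0.17 to 0.15 apart from spiked-in controls.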

How the results depend on the processing

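No paired analysis was possible because 1 array was made per genotype in either tissue, and no array could be left out for the same reason. Under the main scaling the median gene stood at −0.11 (duodenum) and −0.04 (spinal cord), against 2.89 and −0.21 on spiked-in controls and −0.18 and −0.45 under normexp. In the duodenum, the count of members at least 2-fold higher (4) was 12 under normexp, 12 with flagged backgrounds replaced, 37 on spiked-in controls and 14 at 1.5-fold. Over all genes 3.93%, 3.92% and 96.1% were higher under the first 3 of these settings. No share over all genes was counted at 1.5-fold, with the mean of probes or without the filter. The count lower (1) was 0 under normexp with either background, quantiles of the 4 arrays, spiked-in controls and the deposited table, and 2 at 1.5-fold. Over all genes 14.3% were lower under normexp with either background, 8.79% with quantiles of the 4 arrays, 0.084% on spiked-in controls and 8.75% in the deposited table. The median (0.35) was 0.80 under normexp with either background, 0.48 with quantiles of the 4 arrays, 0.59 with quantiles within each tissue, 3.35 on spiked-in controls and 0.49 in the deposited table. *Hadh* turned from −1.50 to 1.51 on spiked-in controls, a shift of all genes alike by construction. In the spinal cord, the count higher (0) was 1 under normexp, quantiles of the 4 arrays, the deposited table, the mean of probes and no filter, and 4 at 1.5-fold. Over all genes 0.341% were higher under normexp and 1.98% with quantiles of the 4 arrays and in the deposited table. The count lower (0) was 5 under normexp, where a local background of the WT array reached 15708 and 38.3% of all genes were lower. The median (0.02) was 0.16 under normexp and −0.15 on spiked-in controls. Between tissues, the WT median (1.66) was 1.27 under normexp, 0.92 with flagged backgrounds replaced, 1.09 with quantiles of the 4 arrays and in the deposited table, and 1.23 with the mean of probes. The median on the arrays labelled IP6K2-KO (2.02) was 1.57 under normexp with either background, 1.51 with quantiles of the 4 arrays and in the deposited table, and 2.09 with quantiles within each tissue. Over all genes of the spinal cord, higher calls were 72.5% of calls under the main scaling, 0.883% under normexp, 90.1% with flagged backgrounds replaced and 55.7% on spiked-in controls. Apart from *Hadh* no called value changed sign under any alternative that gave it a value. For *Acot2* in the duodenum, called as a bound, no fold could be given under normexp with either background. Of all values recomputed, 431 stayed within the technical SD, or within 1.5 times for a count, and 637 moved by more. The cause of the other movements was not tested. The number of arrays limits every value, and the WT duodenum array, with 51.6% of probes well above background, limits the dim genes.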
